A study of Mus musculus with 12 samples.

Results

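The dual-specificity MAPK phosphatases are a family of enzymes that remove phosphate from the activation loop of MAP kinases, and 9 of their genes are described here: Dusp1, Dusp4, Dusp5, Dusp6, Dusp7, Dusp8, Dusp10, Dusp14 and Dusp16. They were chosen by gene symbol as family members, by a rule that uses no measured value but was written with results of these data already known, and all 9 were found among the 55416 genes of the count table and passed the filter on low counts. Expression was measured by RNA sequencing (paired-end reads of 150 bp from total RNA) in 12 libraries of C2C12 cells, an established line of mouse skeletal muscle myoblasts that fuse into myotubes when serum is lowered. The 4 groups, with 3 libraries each that the labels call biological replicates, were wild-type cells in growth medium (WT GM), wild-type cells in differentiation medium (WT DM), cells labelled as Mapk14 knockout (Mapk14-/-) in growth medium (KO GM), and the same label in differentiation medium (KO DM). Growth medium held 10% fetal bovine serum and differentiation medium 2% horse serum, and RNA was taken after 5 days in either. The labels do not say how the gene was edited or how many clones carry the knockout label. What separated the replicates beyond their label is likewise not stated, so p-values measure the spread between these libraries.

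MAP kinases relay signals from growth factors and stress, and they are active only while both a threonine and a tyrosine in their activation loop carry phosphate. Dual-specificity phosphatases strip both residues. Many of their genes are themselves switched on by the pathway that the enzyme shuts off, so the transcripts are widely read as negative feedback of that pathway. In myoblasts, ERK signaling driven by serum favors proliferation, while the p38 kinases promote differentiation. The typical members described here, which are not all of the family, include nuclear inducible enzymes (Dusp1, Dusp4, Dusp5) and cytoplasmic enzymes directed at ERK (Dusp6, Dusp7). The other typical ones described are directed at JNK and p38 (Dusp8, Dusp10, Dusp16). Dusp14 is a small atypical enzyme without the kinase-binding domain of the others.

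Promoter sequences are shown for 4 members: Dusp5 and Dusp6, which had the largest falls in differentiation medium, and Dusp1 and Dusp8, which rose in it under the knockout label. Each is the 250 bases before the start site, 5′ to 3′ on the strand of the gene, from RefSeq on the build GRCm38.p6. The count table has no coordinates of its own, and the submitters name the build GRCm39, so positions apply to the printed sequence only. Capitals mark matches on either strand to the cAMP response element (CRE, TGACGTCA), its TGACG core, the AP-1 motif (TGANTCA), an ETS motif (CCGGAA) and the serum response element (CArG box). The Dusp5 stretch lies at chr19:53528895-53529144 (plus strand), Dusp6 at chr10:99262981-99263230 (plus strand), Dusp1 at chr17:26508473-26508722 (minus strand) and Dusp8 at chr7:142095285-142095534 (minus strand).
Dusp5: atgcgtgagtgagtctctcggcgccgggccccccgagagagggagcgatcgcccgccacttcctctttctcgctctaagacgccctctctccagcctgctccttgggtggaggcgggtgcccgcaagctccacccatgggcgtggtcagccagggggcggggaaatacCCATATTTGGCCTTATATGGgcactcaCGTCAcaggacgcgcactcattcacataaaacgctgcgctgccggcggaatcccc
Dusp6: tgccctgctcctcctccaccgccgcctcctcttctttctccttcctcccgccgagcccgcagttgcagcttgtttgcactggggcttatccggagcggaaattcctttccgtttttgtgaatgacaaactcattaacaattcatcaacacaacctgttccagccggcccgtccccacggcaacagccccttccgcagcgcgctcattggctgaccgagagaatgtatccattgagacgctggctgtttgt
Dusp1: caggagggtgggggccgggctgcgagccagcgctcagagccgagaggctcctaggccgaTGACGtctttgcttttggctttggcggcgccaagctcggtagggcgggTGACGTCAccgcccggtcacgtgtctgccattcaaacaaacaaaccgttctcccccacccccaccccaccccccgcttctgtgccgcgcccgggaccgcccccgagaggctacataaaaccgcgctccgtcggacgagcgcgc
Dusp8: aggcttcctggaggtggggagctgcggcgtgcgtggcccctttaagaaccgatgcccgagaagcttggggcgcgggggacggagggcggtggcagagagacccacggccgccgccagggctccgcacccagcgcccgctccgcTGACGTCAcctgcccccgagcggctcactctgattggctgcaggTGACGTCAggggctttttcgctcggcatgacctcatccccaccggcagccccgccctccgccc

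The Dusp5 sequence held 2 adjoining CArG boxes, CCATATTTGG at 82 to 73 bases and CCTTATATGG at 72 to 63 bases before the start. A CArG box stood in 1.5% of the 32851 RefSeq promoters searched in the same window. The full CRE stood in 1.5% of them, and it was found once in Dusp1 (143 to 136 bases before the start) and 2 times in Dusp8 (107 to 100 and 63 to 56 bases). The TGACG core, which is part of every full CRE, occurred in 17.8% of promoters and also stood alone in Dusp1, Dusp5 and Dusp16. The ETS motif (12% of promoters) was present in Dusp14 alone among the 8 members in the table, and the AP-1 motif (6.7%) in none of these 8. None of these motifs was found in Dusp6, Dusp7 or Dusp10, and an E-box (CANNTG, 66.2% of promoters, left in lower case) was in Dusp1, Dusp6, Dusp7, Dusp8, Dusp14 and Dusp16. These are letter matches in a short window and do not show binding. The shares are over promoters of any base content, with a median of 52.4% G and C. The Dusp1 and Dusp8 sequences held 68.4% and 71.6%, and shares among promoters of like content were not computed. For Dusp4 no promoter is printed.

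RNA of Mapk14, which encodes p38 alpha and names the knockout, did not separate the labels. In CPM (counts scaled to the effective library size), WT GM libraries held 108 to 135 of it and KO GM libraries 130 to 137, and in differentiation medium the ranges were 88.7 to 93.9 (WT) and 84.5 to 93.8 (KO-labelled). The difference between the labels was 0.11 ± 0.08 in growth medium and -0.03 ± 0.08 in differentiation medium (log2 fold change ± SE, edgeR adjusted p = 0.35 and 0.822). Protein and edited sequence were not measured, so wherever WT and KO are set against each other the labels alone define the sides. Library totals were 8821669 to 11536396 counts. All 8 myoblast and myotube markers were detected in each group, with a summed level of 1717 to 2286 CPM in WT GM, 6460 to 6584 in WT DM, 336 to 562 in KO GM and 2646 to 3052 in KO DM, so that both medium and label moved with muscle gene expression. Mki67, a marker of cycling cells, was higher in differentiation medium, at 17.5, 18.6 and 36.4 CPM in WT GM against 77.8 to 98.2 in WT DM, and at 35.8 to 39.5 in KO GM against 92.5 to 104 in KO DM (1.86 ± 0.23 and 1.42 ± 0.22, adjusted p = 1.99e-04 and 6.41e-04). Of the leukocyte markers, Ptprc and Adgre1 had no count in any library, while Cd14 and Csf1r brought the list to between 17.6 and 46.2 CPM. Epcam and Cldn4 were at 0 in the epithelial list, whose sum reached 14.4 CPM in KO DM through Krt14 and 4.6 elsewhere, and endothelial, neural, adipocyte and osteoblast markers summed to at most 2.57 CPM. Replicate 3 of both growth medium groups lay apart: over genes, the chi-square per degree of freedom between libraries was 14.1 and 9.37 for the WT GM pairs with replicate 3 and 3.45 for the other pair, and 14 and 10.3 against 6.15 in KO GM. The part of differentiation state and of cell cycling in the phosphatase results was not tested, and in bulk RNA a change in the share of cells of a type and a change of RNA per cell cannot be told apart.

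**Figure D1:**
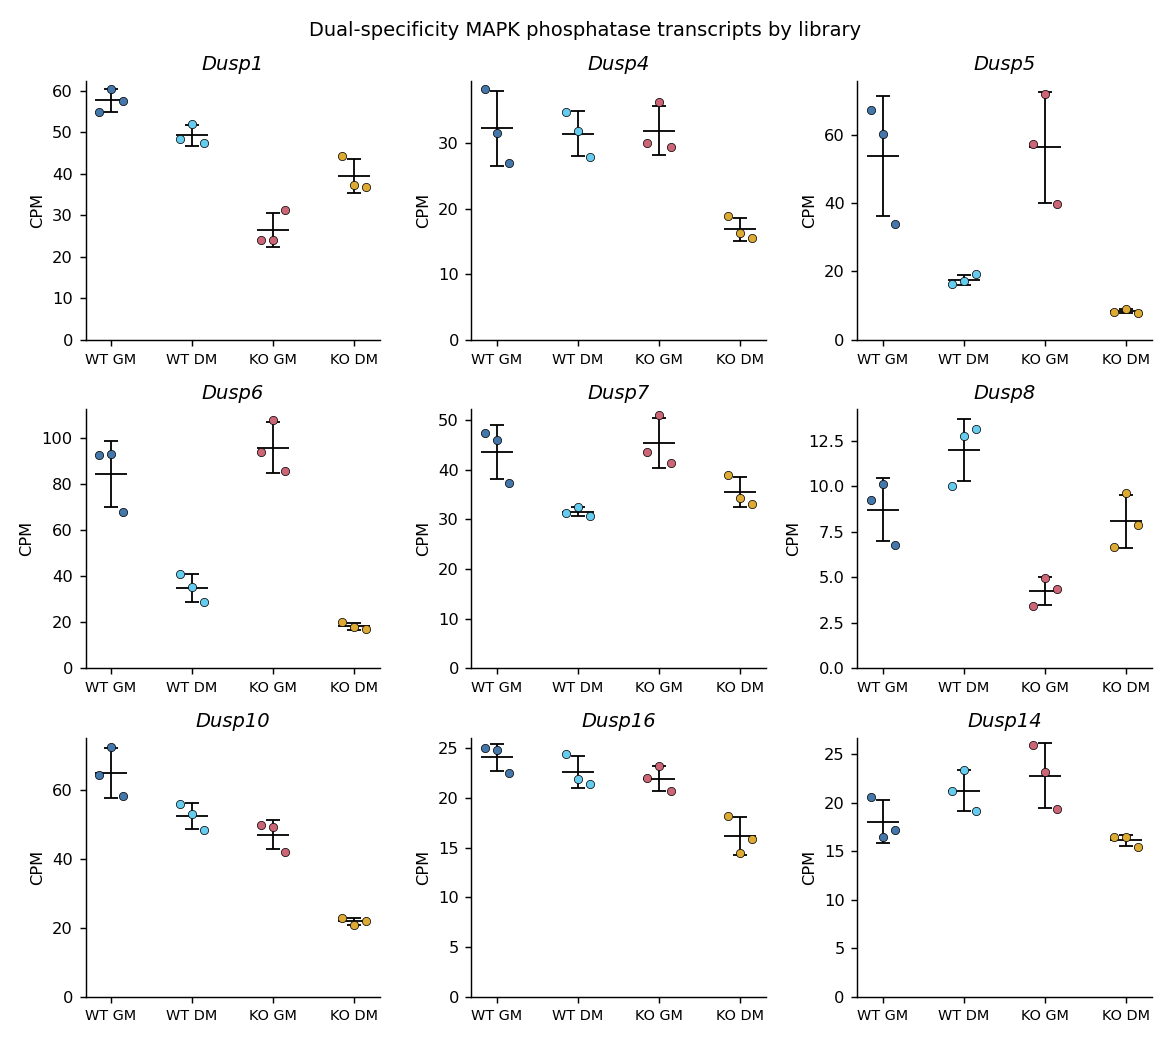
CPM of the 9 phosphatase genes in each of the 12 libraries (points), with the group mean (long bar) and SD (error bar, n = 3); each vertical axis starts at 0. Dusp5 and Dusp6 are low in all 6 differentiation medium libraries. All KO DM libraries lie under the other groups for Dusp4, Dusp5, Dusp6, Dusp10 and Dusp16, and Dusp1 is lowest in KO GM.

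The nuclear inducible phosphatases among the 9 members did not move together. Dusp5 fell steeply in differentiation medium under both labels, Dusp4 fell only where differentiation medium and the knockout label met, and Dusp1 was lower under the knockout label in both media. Changes are log2 fold changes ± SE from edgeR, and rose and fell are used for an adjusted p below 0.05 over all 13250 genes tested.

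Dusp1 encodes the founding member of the family, an immediate early gene product that acts on p38, JNK and ERK in the nucleus. It was at 54.9, 60.4 and 57.6 CPM in WT GM, and at 48.3, 52.0 and 47.4 in WT DM. In KO GM it was at 24.0, 24.0 and 31.2 CPM, and in KO DM at 44.2, 37.4 and 36.9. No library of a group overlapped another group, and the 3 KO GM libraries were the lowest of the 12. Within growth medium the gene was 2.18-fold lower under the knockout label (-1.12 ± 0.11, adjusted p = 5.7e-08). In differentiation medium the gap was smaller (-0.32 ± 0.10, adjusted p = 0.0219), and its call ended without WT DM replicate 1 or 2 or KO DM replicate 2 or 3 (adjusted p = 0.0517 to 0.122). The switch of medium raised Dusp1 in KO-labelled cells (0.57 ± 0.11, adjusted p = 1.63e-04), whereas the WT value was -0.23 ± 0.10 (adjusted p = 0.0928). That WT value passed with total counts alone (0.0418) and without KO GM replicate 3 (0.0385). The interaction (KO-labelled response less the WT response) was 0.80 ± 0.15 (adjusted p = 0.00158). Dusp1 overlaps 4 other genes in GENCODE M21. AC122252.4 (a processed pseudogene) and AC122252.1 (sense intronic) lie on its own strand, and reads shared with them could not be separated by strand. Gm8225 and Ergic1 lie on the opposite strand, and Ergic1 was at -0.09 between the labels in growth medium (adjusted p = 0.485).

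Dusp4 encodes an inducible nuclear enzyme closely related to the Dusp1 product. It was at 38.3, 31.5 and 26.9 CPM in WT GM, 34.7, 31.8 and 27.8 in WT DM, and 30.0, 36.2 and 29.4 in KO GM. In KO DM it was at 18.8, 16.2 and 15.5 CPM. The first 3 groups overlapped throughout, and every KO DM library lay under all 9 others. The fall with differentiation medium in KO-labelled cells was 1.89-fold (-0.92 ± 0.13, adjusted p = 8.11e-06), against -0.04 ± 0.13 in WT cells (adjusted p = 0.853). Between the labels it fell in differentiation medium (-0.90 ± 0.13, adjusted p = 2.04e-05) and was at -0.01 ± 0.13 in growth medium (adjusted p = 0.956). The interaction was -0.88 ± 0.19 (adjusted p = 0.00431).

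Dusp5 encodes a nuclear phosphatase specific for ERK. It was at 67.2, 60.2 and 33.7 CPM in WT GM and 57.3, 71.9 and 39.6 in KO GM. In WT DM it was at 16.4, 17.2 and 19.2 CPM, and in KO DM at 8.21, 8.96 and 7.90. The growth medium groups overlapped and each had its lowest value in replicate 3, while the KO DM libraries lay under the WT DM libraries, and those under all growth medium libraries. The fall with differentiation medium was 3.05-fold in WT cells (-1.61 ± 0.29, adjusted p = 0.0023) and 6.73-fold in KO-labelled cells (-2.75 ± 0.32, adjusted p = 9.26e-05). In differentiation medium it fell by 1.07 ± 0.34 under the knockout label (adjusted p = 0.0419). That call ended without any of WT DM replicates 1, 2 and 3, KO DM replicates 1, 2 and 3, WT GM replicate 2 or KO GM replicate 1, with total counts alone and with no filter on low counts (adjusted p = 0.054 to 0.119), and was at 2.32e-08 without replicate 3 of both growth medium groups (-1.05 ± 0.13). The interaction was -1.14 ± 0.43 (adjusted p = 0.15). It passed without KO GM replicate 3 (0.0437), without replicate 3 of both growth medium groups (-1.07 ± 0.17, 1.66e-05) and with dispersion not made robust (0.0429). An antisense gene, AC137853.2, overlaps Dusp5, and it fell with differentiation medium as well (-1.82 in WT cells, from a mean of 5.14 CPM, adjusted p = 0.00159). Without a stated strand setting, reads of these overlapping genes cannot be told apart.

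The cytoplasmic ERK phosphatases among the 9 members both fell in differentiation medium, Dusp6 by far more than Dusp7. Dusp6 encodes the cytoplasmic enzyme that binds ERK most selectively, and its transcript is a standard readout of ERK activity. It was at 92.7, 93.2 and 67.9 CPM in WT GM and 94.1, 108 and 86.0 in KO GM. It was at 41.0, 35.4 and 28.8 CPM in WT DM and 20.0, 18.1 and 16.9 in KO DM. The growth medium groups overlapped, and the differentiation medium libraries were lower in the order WT, then KO-labelled, with no overlap. Dusp6 was 2.41-fold lower with differentiation medium in WT cells (-1.27 ± 0.14, adjusted p = 2.29e-06) and 5.24-fold lower in KO-labelled cells (-2.39 ± 0.15, adjusted p = 2.18e-09). The difference between these responses was -1.12 ± 0.20 (interaction adjusted p = 0.00272). Between the labels it was at 0.18 ± 0.13 in growth medium (adjusted p = 0.36) and fell by 0.93 ± 0.15 in differentiation medium (adjusted p = 1.92e-04).

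Dusp7 encodes the closest relative of the Dusp6 product. It was at 47.3, 45.9 and 37.2 CPM in WT GM, 31.3, 32.5 and 30.6 in WT DM, 43.6, 51.0 and 41.3 in KO GM, and 38.9, 34.4 and 33.2 in KO DM. It was lower in every differentiation medium library than in the growth medium libraries of its own label. The fall was 1.38-fold in WT cells (-0.46 ± 0.11, adjusted p = 0.0019) and 1.28-fold in KO-labelled cells (-0.36 ± 0.11, adjusted p = 0.01). The second call ended without KO DM replicate 2 or 3 and without KO GM replicate 2 (adjusted p = 0.0572 to 0.0967). Dusp7 passed the test in neither comparison between the labels (0.06 ± 0.11 in growth medium, adjusted p = 0.743, and 0.17 ± 0.11 in differentiation medium, adjusted p = 0.256), and the interaction was 0.11 ± 0.15 (adjusted p = 0.719).

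The phosphatases directed at JNK and p38 differed in direction as well. Dusp10 and Dusp16 fell in KO-labelled cells on the switch of medium, while Dusp8 rose. Dusp10 encodes an enzyme that acts on p38 and JNK in nucleus and cytoplasm and has been studied as a restraint on muscle regeneration. It was at 64.2, 72.4 and 58.1 CPM in WT GM, 56.0, 53.0 and 48.4 in WT DM, and 49.7, 49.3 and 42.0 in KO GM. In KO DM it was at 22.9, 20.8 and 22.0 CPM, under every other library. Dusp10 fell on all 4 comparisons. The largest was between the labels in differentiation medium, where it was 2.39-fold lower (-1.26 ± 0.10, adjusted p = 3.88e-09). In growth medium the label difference was -0.47 ± 0.10 (adjusted p = 0.00114). The response to differentiation medium was -1.10 ± 0.10 in KO-labelled cells (adjusted p = 1.87e-08) and -0.31 ± 0.10 in WT cells (adjusted p = 0.0168), with an interaction of -0.79 ± 0.14 (adjusted p = 0.00116). The WT call ended without WT DM replicate 3 (adjusted p = 0.0927) or WT GM replicate 2 (0.109). The protein-coding gene 1700056E22Rik overlaps Dusp10 on the opposite strand, and without a stated strand setting their reads cannot be told apart.

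Dusp16 encodes a larger enzyme that shuttles between nucleus and cytoplasm and acts mainly on JNK. It was at 25, 24.8 and 22.6 CPM in WT GM, 24.4, 22.0 and 21.5 in WT DM, 22.0, 23.2 and 20.7 in KO GM, and 18.2, 14.5 and 15.9 in KO DM. As for Dusp4, Dusp5, Dusp6 and Dusp10, the KO DM libraries were the lowest of the 12. The span was smaller for Dusp16, and its other groups overlapped. It fell in KO-labelled cells with differentiation medium (-0.44 ± 0.12, adjusted p = 0.00441) and in differentiation medium under the knockout label (-0.48 ± 0.12, adjusted p = 0.00325). In WT cells it was at -0.09 ± 0.12 (adjusted p = 0.571) and in growth medium at -0.13 ± 0.11 between the labels (adjusted p = 0.456). The interaction was -0.35 ± 0.16 (adjusted p = 0.204).

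Dusp8, whose product acts on JNK and p38 and is best known from brain and heart, had the fewest counts of the 9. It was at 9.26, 10.1 and 6.79 CPM in WT GM, 10.0, 12.8 and 13.2 in WT DM, 3.44, 4.94 and 4.35 in KO GM, and 6.69, 9.62 and 7.90 in KO DM. Counts of 32 to 132 per library stand behind these values, so that counting error is a larger part of them than for the other members. KO GM was the lowest group, as for Dusp1. Under the knockout label Dusp8 fell by 1.02 ± 0.21 in growth medium (adjusted p = 0.00112) and by 0.57 ± 0.19 in differentiation medium (adjusted p = 0.0269). The second call ended without WT DM replicate 2 or 3 or KO DM replicate 1 or 3 (adjusted p = 0.0827 to 0.15). Differentiation medium raised it in KO-labelled cells (0.92 ± 0.21, adjusted p = 0.00132). The WT value was 0.47 ± 0.19 (adjusted p = 0.0676), and it passed without WT DM replicate 1 (0.0484). The interaction was 0.45 ± 0.29 (adjusted p = 0.36).

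Dusp14, the atypical member, was at 20.6, 16.4 and 17.2 CPM in WT GM, 21.2, 23.4 and 19.2 in WT DM, 26.0, 23.1 and 19.3 in KO GM, and 16.5, 16.4 and 15.4 in KO DM. Groups overlapped except that KO DM lay under both WT DM and KO GM. It fell with differentiation medium in KO-labelled cells (-0.50 ± 0.13, adjusted p = 0.00402) and was at 0.23 ± 0.13 in WT cells (adjusted p = 0.186). Under the knockout label it fell in differentiation medium (-0.40 ± 0.13, adjusted p = 0.0254) and was at 0.33 ± 0.13 in growth medium (adjusted p = 0.0754). The fall ended without WT DM replicate 1 or 2 or any of KO DM replicates 1, 2 and 3 (adjusted p = 0.0657 to 0.14). The growth medium value passed without WT GM replicate 1 (0.0433), KO GM replicate 3 (0.0231) or replicate 3 of both groups (0.0435). The interaction was -0.73 ± 0.19 (adjusted p = 0.0159), which ended without WT DM replicate 2, WT GM replicate 2 or KO GM replicate 1 (0.0547 to 0.0654).

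**Figure D2:**
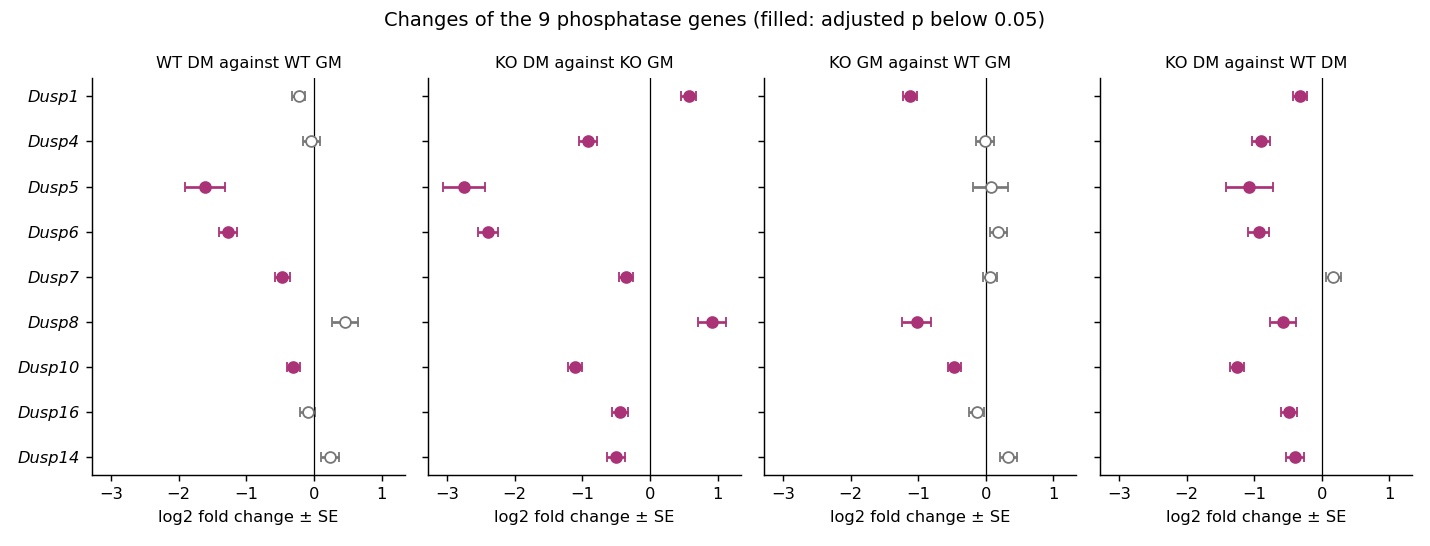
Log2 fold changes ± SE (horizontal axis) of the 9 genes in 4 comparisons, from the edgeR fit to all 12 libraries; filled points have an adjusted p below 0.05. In the KO DM against WT DM panel 8 of 9 points are filled and negative, while Dusp7 is open at 0.17. In this comparison 17.4% of all genes fell and 31% were called. Leaving out single libraries, 4 to 8 of the 9 genes were called lower.

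Counted over the 9 members, 4 fell in WT cells on the switch to differentiation medium (Dusp5, Dusp6, Dusp7, Dusp10) and 5 did not pass, against 14.8% of all genes that fell and 33.2% called in either direction. In KO-labelled cells 7 fell and 2 rose, so that all 9 were called, where 40.6% of all genes were, 19.8% lower and 20.8% higher. In growth medium 3 fell under the knockout label (Dusp1, Dusp8, Dusp10) and 6 did not pass, against 10.6% of all genes lower and 20.7% called. In differentiation medium 8 fell under the label and Dusp7 did not pass, where 17.4% of all genes fell and 31% were called. That count of 8 was 4 without WT DM replicate 2 or KO DM replicate 3, and 5 without WT DM replicate 1 or KO DM replicate 1 or 2. The calls of Dusp4, Dusp6, Dusp10 and Dusp16 in this comparison held under each of the 23 alternatives. The libraries of the compared groups did not overlap for 5, 9, 3 and 9 members in these 4 comparisons, against 44.3%, 50.7%, 32.3% and 47.5% of all genes. Median changes over the members were -0.23, -0.50, -0.01 and -0.57, and those over all genes lay between -0.02 and 0. Each group serves in several comparisons, so these counts are not independent of each other.

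The response to differentiation medium differed between the labels for 5 members, against 8.86% of all genes. It was more negative in KO-labelled cells for Dusp4, Dusp6, Dusp10 and Dusp14 (5.25% of all genes were called lower) and more positive for Dusp1 (3.61% higher). With total counts alone 57.8% of all genes called in the interaction were higher, compared with 40.7% in the main scaling. The same 5 members were called under that scaling. Of the 5, Dusp6 and Dusp10 fell under both labels, whereas Dusp4 and Dusp14 fell and Dusp1 rose in KO-labelled cells and did not pass in WT cells.

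**Figure D3:**
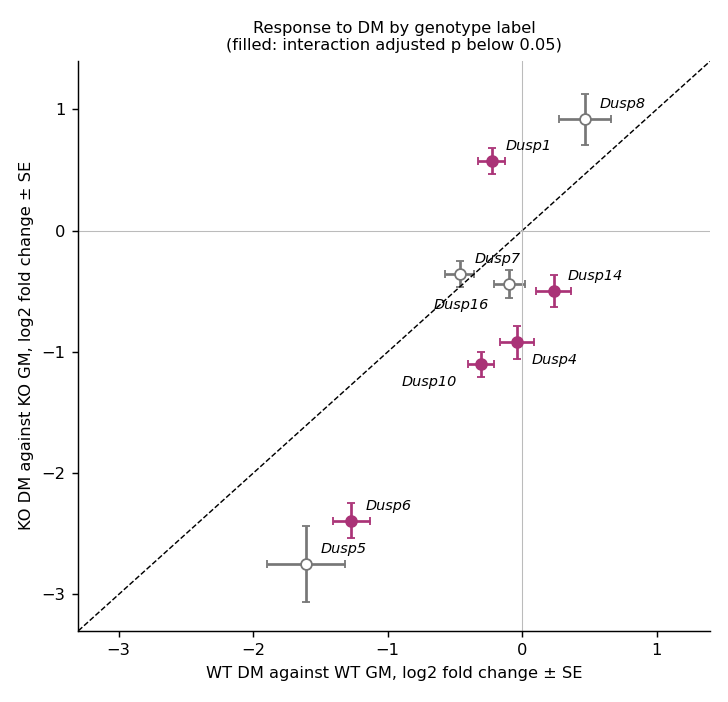
Response to differentiation medium in WT cells (horizontal) and in KO-labelled cells (vertical), as log2 fold changes ± SE, with the line of equal response dashed; filled points have an interaction adjusted p below 0.05. Dusp4, Dusp6, Dusp10 and Dusp14 lie under the line and Dusp1 above it.

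Ordered by level over the 4 groups, Dusp5 and Dusp6 shared an order, as did Dusp10 and Dusp16. The other members each had their own. Dusp5 and Dusp6 ran KO GM, WT GM, WT DM, KO DM, with the first 2 not differing and each later step called. For Dusp5 the last step (adjusted p = 0.0419) lost its call under 10 of 23 alternatives, and for Dusp6 it held under all. Dusp10 and Dusp16 ran WT GM, WT DM, KO GM, KO DM. Among these steps, WT DM and KO GM did not differ for Dusp10 (0.16 ± 0.10, adjusted p = 0.206), and for Dusp16 only the last step was called. The Dusp10 step from WT GM to WT DM lost its call under 2 of 23 alternatives. Dusp4 had its first 3 groups level and KO DM lower. Dusp1 ran WT GM, WT DM, KO DM, KO GM, with the first 2 not differing. Its step from WT DM to KO DM lost its call under 4 of 23 alternatives. Dusp8 ran WT DM, WT GM, KO DM, KO GM, and only its last step was called, while no neighbouring groups of Dusp14 differed. Dusp7 ran KO GM, WT GM, KO DM, WT DM, and only the step from WT GM to KO DM was called (0.29 ± 0.11, adjusted p = 0.0285), a call that ended without WT GM replicate 1 or 2 or KO DM replicate 2 or 3 (0.107 to 0.16). These orders were the same with 3 other scalings, which could change little, since TMM factors lay between 0.978 and 1.02. Orders were not compared under the other alternatives. Steps that were not called could change sign over the 23 alternatives. The Dusp5 step between KO GM and WT GM ran from -0.19 to 0.27. For Dusp16, KO GM against WT DM ran from -0.08 to 0.03. The orders that members share thus rest partly on steps without a settled direction. Of the 2 comparisons made only for this order, KO DM against WT GM had 7 members lower and 2 that did not pass (45.7% of all genes called), with libraries apart for 6 (53.3% of all genes). KO GM against WT DM had 3 members higher, 2 lower and 4 that did not pass (41.4% called), with libraries apart for 5 (51.2%).

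Across all 12 libraries, Dusp5 and Dusp6 had the highest correlation of any pair of members (Pearson r = 0.98 on log2 CPM, n = 12), followed by Dusp10 with Dusp16 (0.955), Dusp4 with Dusp16 (0.947) and Dusp4 with Dusp10 (0.919). Dusp1 and Dusp8 correlated at 0.767 with each other and at most 0.315 with any other member. The points share the 4 groups, so these values mostly describe the group means. Among 9352 candidate genes of at least 10 CPM, those most like Dusp6 over the 12 libraries were Sema7a (r = 0.995), Hmga2 (0.994) and Ccdc85b (0.992). For Dusp5 they included Prelid1 (0.99) and Wdr36 (0.986), for Dusp10 they were Pkp1 (0.987), Cd44 (0.984) and Npnt (0.98), and for Dusp1 Krt80 (0.968), Lpl (0.966) and Igfbp4 (0.934). Ncs1 was most like Dusp4 (0.98), Klhl21 most like Dusp7 (0.966), Mrpl9 most like Dusp16 (0.959), Mfap3 most like Dusp14 (0.95) and Lmo7 most like Dusp8 (0.948).

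Levels of different genes were compared per kb of exon (union of exons in GENCODE M21). In growth medium Dusp6 led, at 27.0 CPM per kb in WT and 30.7 in KO-labelled cells, followed by Dusp5 at 21.7 and 22.8 and Dusp10 at 21.3 and 15.5. In WT DM the first places passed to Dusp10 (17.2) and Dusp1 (14.9), and Dusp6 stood at 11.2. In KO DM Dusp1 (11.9) and Dusp7 (10.6) were highest, with Dusp6 at 5.85 and Dusp5 at 3.38. Dusp16 and Dusp8 were the lowest in every group, at 2.08 to 3.09 and 0.871 to 2.46. The summed level of the 9 members, in CPM, was 387 ± 51.5 in WT GM, 352 ± 38.9 in KO GM, 273 ± 14.9 in WT DM and 181 ± 12.1 in KO DM (mean ± SD, n = 3). The growth medium groups overlapped in this sum, and the KO DM libraries (172 to 194) lay under the WT DM libraries (256 to 283).

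**Figure D4:**
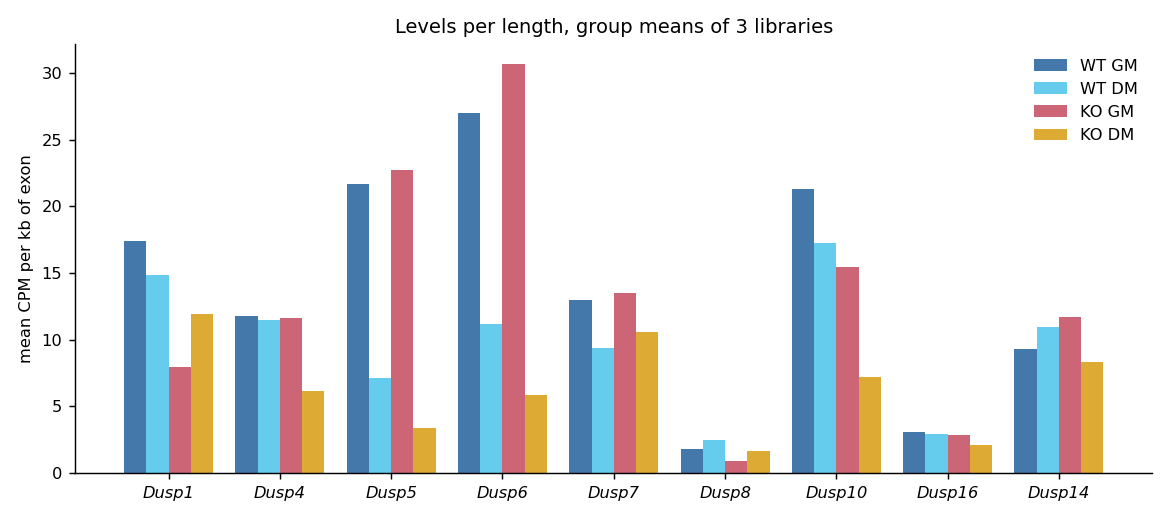
Group means (n = 3 libraries) of CPM per kb of exon for the 9 genes, as bars from 0. Dusp6 and Dusp5 are the tallest bars in growth medium and among the lower ones in KO DM, where Dusp1 leads at 11.9.

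Of 22 other dual-specificity phosphatase symbols listed, older and newer names included, 18 were in the table and 13 passed the filter. In WT cells 6 of the 13 rose with differentiation medium (18.4% of all genes did) and the others did not pass (median 0.17). In KO-labelled cells 5 rose and 3 fell, against 20.8% and 19.8% of all genes. Dusp27, a catalytically inactive relative found in muscle, was at 18.7, 18.1 and 22.1 CPM in WT GM, 74.2, 71.6 and 78.2 in WT DM, 5.48, 5.03 and 8.60 in KO GM, and 54.4, 50.0 and 49.0 in KO DM. It rose by 1.93 ± 0.12 in WT cells and 3.00 ± 0.14 in KO-labelled cells (adjusted p = 6.42e-11 and 5.75e-13). Dusp13, a family gene of testis and skeletal muscle, rose by 1.57 ± 0.28 in WT cells (adjusted p = 1.05e-04), from a mean of 2.94 to 8.73 CPM. In KO GM it had only 2, 2 and 10 counts (0.215, 0.173 and 0.887 CPM), against 22, 18 and 20 in KO DM, so that no fold from that group is given. Dusp9, the third cytoplasmic ERK phosphatase, fell under the label in both media, by 1.07 ± 0.24 in growth medium (adjusted p = 0.00233) and by 1.64 ± 0.25 in differentiation medium (adjusted p = 2.34e-05). With differentiation medium Dusp9 did not pass in WT cells (0.17 ± 0.22, adjusted p = 0.605) or in KO-labelled cells (-0.40 ± 0.27, adjusted p = 0.263). In growth medium 4 of the 13 fell and 1 rose under the label (10.6% and 10% of all genes), and in differentiation medium 6 fell (17.4% of all genes) and the others did not pass.

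Of 8 tested MAP kinase genes, 1 rose and 3 fell in WT cells with differentiation medium (33.2% of all genes were called), among them Mapk11 (p38 beta, -0.83 ± 0.14, adjusted p = 9.95e-05) and Mapk14 (-0.45 ± 0.08, adjusted p = 1.25e-04). In KO-labelled cells 2 rose and 2 fell (40.6% of all genes called). Between the labels 1 of the 8 was called in each medium, a share under the 20.7% and 31% of all genes, Mapk9 (JNK2) in growth medium at 0.26 ± 0.08 (adjusted p = 0.0254) and Mapk7 (ERK5) in differentiation medium at 0.36 ± 0.11 (adjusted p = 0.0183). Of 7 MAP kinase kinases, 3 fell with differentiation medium under both labels, where 14.8% of all genes fell in WT cells and 19.8% in KO-labelled cells. These were Map2k6 and Map2k3, activators of p38, at -0.93 ± 0.19 and -0.63 ± 0.10 in WT cells (adjusted p = 5.18e-04 and 2.7e-05), and Map2k1, an activator of ERK, at -0.48 ± 0.07 (adjusted p = 9.97e-06). Between the labels Map2k1 was at 0.16 ± 0.07 in growth medium (adjusted p = 0.107) and 0.03 ± 0.07 in differentiation medium (adjusted p = 0.774). Among 6 tested phosphatases of other families, Ptpn5 fell with differentiation medium in WT cells (adjusted p = 0.00278), from 32, 21 and 12 counts in WT GM to 8, 0 and 1 in WT DM, and Ppm1b rose by 0.59 ± 0.09 (adjusted p = 3.4e-05).

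Most other transcripts listed as feedback or ETS outputs of ERK were lower in differentiation medium, as Dusp5 and Dusp6 were. ERK activity itself was not measured. Of 12 tested ERK feedback and ETS genes, 10 fell and 1 rose in WT cells (median -0.80), and 9 fell and 1 rose in KO-labelled cells (median -1.14), where 14.8% and 19.8% of all genes fell. Etv4, an ETS factor gene, was at 46.9 to 56.8 CPM in WT GM, 24.3 to 31.1 in WT DM, 45.8 to 50.1 in KO GM and 8.82 to 12.5 in KO DM. It fell by 0.94 ± 0.11 in WT cells and by 2.13 ± 0.13 in KO-labelled cells, with an interaction of -1.18 ± 0.17 (adjusted p = 1.61e-04). Spry1, which encodes a Sprouty inhibitor of receptor signaling, rose instead (1.68 ± 0.22 in WT cells, adjusted p = 2.29e-06). Under the knockout label 1 of the 12 fell in growth medium, Etv1 (adjusted p = 3.41e-07, from 44, 60 and 45 counts in WT GM to 3, 5 and 6 in KO GM), and 2 rose (10.6% and 10% of all genes). In differentiation medium 7 fell (17.4% of all genes) and 1 rose, Spry2 at 0.67 ± 0.09 (adjusted p = 3.59e-06). Of 14 immediate early genes 4 fell and 3 rose in WT cells, against 14.8% and 18.4% of all genes, and 8 fell and 2 rose in KO-labelled cells, against 19.8% and 20.8%. Egr3, a zinc finger factor gene, rose in WT cells by 1.53 ± 0.14 (adjusted p = 1.83e-08) and fell in KO-labelled cells by 0.96 ± 0.15 (adjusted p = 2.82e-05). Its interaction was -2.49 ± 0.21 (adjusted p = 3.07e-07).

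**Figure D5:**
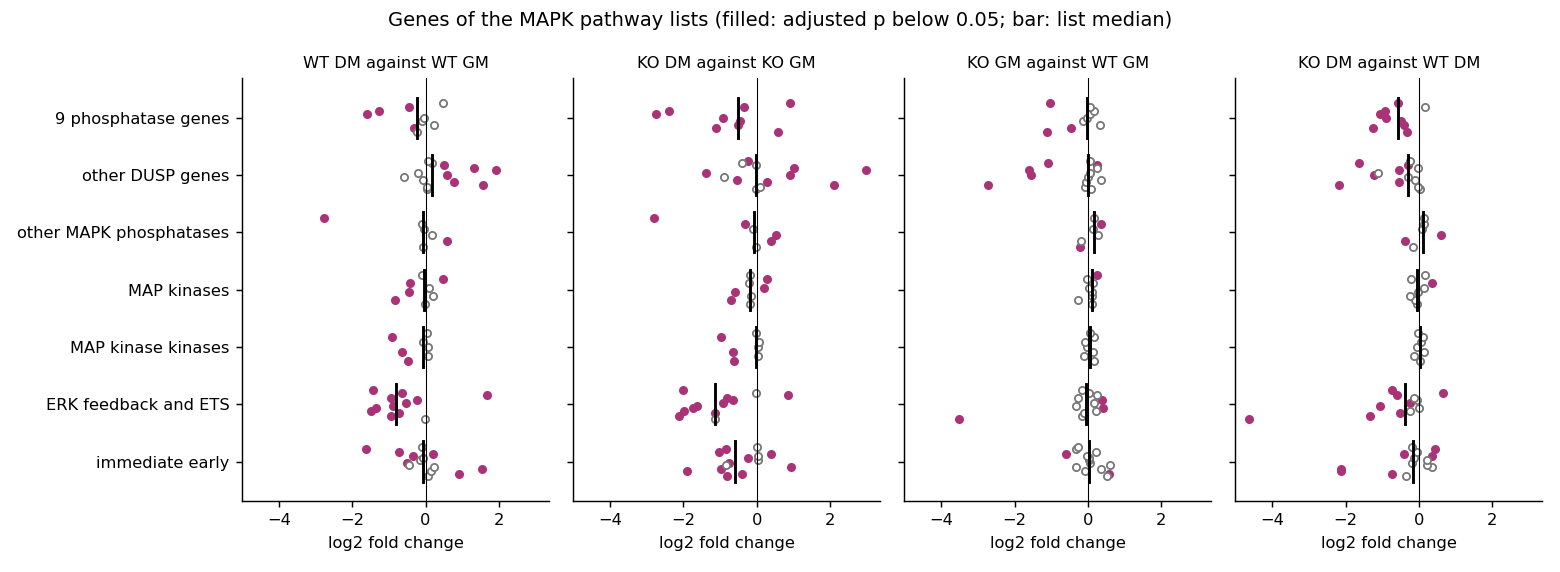
Log2 fold changes of single genes (points) in the 9 members and 6 further gene lists, for 4 comparisons; filled points have an adjusted p below 0.05 and the black bar is the list median. With differentiation medium the ERK feedback and ETS list has medians of -0.80 and -1.14, while those of MAP kinases and MAP kinase kinases lie between -0.17 and -0.02.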

How the data were processed

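The deposited table gives, for each Ensembl gene and each of the 12 libraries, a count that is a whole number and, judged by its values, not normalized. The build GRCm39 and the tools DESeq2 1.40.2, R 4.3.1, RSEM 1.3.3 and STAR 2.7.1a are listed, without roles, in the submitters' processing notes. No source used here states the annotation release or whether counting used strand. The table has 4 empty columns, which were not used. Reference tables gave 52083 of 55416 genes a symbol. In GENCODE M21, 5 of the 9 members overlap another gene, whose reads the authors' counting may have split. These are Dusp1, Dusp5, Dusp8 (with Gm32786), Dusp10 (with 1700056E22Rik) and Dusp16 (with Gm36328). The last 3 overlaps are on the opposite strand.

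The analysis used edgeR 4.0.16 in R 4.3.3. The filter filterByExpr kept 13250 genes holding 99.9% of counts. Libraries were scaled by TMM, which also gave CPM. A quasi-likelihood model with robust dispersion and a mean per group was fitted to all 12 libraries, and tested 2-sided in 5 contrasts and 2 that serve only the order of levels. P-values were adjusted by Benjamini-Hochberg over all genes of a contrast and called below 0.05. The SE was taken as the size of the log2 fold change over the root of its F statistic. For correlations, CPM were put on the log2 scale with a prior count of 2. Genes named beside the members were up to 3 per list and comparison by size of change among those called, or the 2 most abundant, and the 3 genes most correlated with each member, of which the text names part. The members and lists were chosen with earlier results of these data known. Alternatives were 3 scalings, DESeq2 1.42.0, limma-voom (limma 3.58.1), 2 filters, dispersion not robust, fits of 2 groups, a replicate block, each library left out, and replicate 3 of both growth medium groups left out. Totals were 8821669 to 11536396 counts, and 3 counts came to 0.26 to 0.346 CPM in a library.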

Additional observations from a re-analysis of the deposited data

Results flagged for a closer look

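The response to differentiation medium differed between the genotype labels for 5 of the 9 phosphatase genes by the interaction term of the edgeR fit. Of all genes, 8.86% were called in that term. Leaving out single libraries, 3 to 5 members were called lower and 1 higher. On the log2 scale the KO-labelled minus the WT response was 0.80 ± 0.15 for Dusp1 (adjusted p = 0.00158), -0.88 ± 0.19 for Dusp4 (0.00431), -1.12 ± 0.20 for Dusp6 (0.00272), -0.79 ± 0.14 for Dusp10 (0.00116) and -0.73 ± 0.19 for Dusp14 (0.0159). Over 22 alternatives these p-values ranged up to 0.00669, 0.0221, 0.0158, 0.00813 and 0.0654. For Dusp1 and Dusp14 the values in the 2 labels had opposite signs, with the WT value not past the threshold in either gene.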

How the results depend on the processing

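Over the 5 comparisons, 45 member values were refitted under up to 23 alternatives, 1026 values in all. Of these, 983 kept their call, 31 lost it, 12 gained it and none reversed. A reversal was counted only with a call in the main fit or in the alternative. Values called in neither could change sign, such as Dusp5 in KO GM against WT GM (-0.185 to 0.266 over the alternatives). Dusp4 in WT DM against WT GM did so as well (-0.158 to 0.099). The changed calls belong to 11 of the 45. Leaving out single libraries, members called lower in KO DM against WT DM ranged from 4 to 8, members called higher from 0 to 1 in WT DM against WT GM and in KO GM against WT GM, genes higher in KO GM against WT GM from 963 to 1473, and genes called in the interaction from 293 to 969 higher and 400 to 951 lower. The higher interaction count moved by over 1.5 times without WT DM replicate 2, KO GM replicate 1 or 2 (293 to 307), WT GM replicate 3 (738) or KO GM replicate 3 (969). The lower count did so without WT DM replicate 2, WT GM replicate 2, KO GM replicate 1 or 2, or any KO DM replicate (400 to 460). Without replicate 3 of both growth medium groups the interaction had 1373 genes higher and 1336 lower, and Dusp14 was the 1 member higher in KO GM. With only the 2 groups compared, 864 genes were higher in KO GM than in WT GM. The causes were not tested. No scaling moved the median of all genes by over 0.1.

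Same-numbered libraries of different groups correlated in their deviations from the group means at -0.0851 to 0.186, and differently numbered ones at -0.259 to 0.21. For 9 of 12 libraries the best match had their own number, a hint from the data. The numbers were not taken as pairs, since the labels do not say what a number shares. Most same-numbered pairs correlated at positive values under 0.1, and most differently numbered pairs correlated negatively. What same-numbered libraries share was not tested. A replicate block called more genes in both directions of all 5 comparisons, for example 2624 against 2442 higher in WT DM than in WT GM. With a replicate block, 1 member was called higher in WT DM against WT GM (Dusp8, adjusted p = 0.0479) and 1 in KO GM against WT GM (Dusp14, 0.0477). The interaction of Dusp5 was also called with the block (0.0438), and the block changed no other member call in the 5 comparisons. Depth limits Dusp8 most, at 32 to 132 counts per library.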
